A study of Astyanax mexicanus with 20 samples.

Results

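Thick filament genes were followed in the skeletal muscle of the fish Astyanax mexicanus, as all rows of the deposited expression table whose gene name begins with myh, smyhc, myl and a digit, mylpf, mylz, mybpc, mybph, myom or ttn, ignoring case. This rule took 35 of the 27420 rows. They were 11 myosin heavy chain genes, 14 myosin light chain genes, 6 genes of myosin binding proteins C and H and 4 myomesin genes. No row name began with ttn or smyhc, so titin and the genes named smyhc are not analysed here, and heavy chain genes that carry no symbol in the table could not be members. The rule itself reads names and no measured value. RNA was read in 20 libraries from 2 forms of the species, the river-dwelling surface fish and the cave fish. Control muscle of each form was injected with phosphate-buffered saline, with no stated day of collection, and injured muscle was injected with cardiotoxin, a snake venom toxin that destroys muscle fibres, and collected 1, 7 or 14 days post injury (dpi). Each form had 3 control libraries, 3 at 1 dpi, 2 at 7 dpi and 2 at 14 dpi. All samples carry a note of constant darkness in the treatment field. The text on the series' design speaks of muscle taken at several times of a daily cycle and does not mention injury, so the groups rest on the labels of the samples. No age, sex or named strain of fish is used. Nothing in the labels ties a library to a fish of its own, and the spread behind each p-value is that between libraries, which may be technical.

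A thick filament is a bundle of myosin molecules. Each myosin has a pair of heavy chains, which hold the motor and the rod, and on the neck of each motor sit an essential and a regulatory light chain. Myosin binding proteins C and H lie along the filament, and myomesins cross-link neighbouring filaments at the M-band in the middle of the sarcomere. Fast and slow fibres use different isoforms, and embryonic isoforms are known to return in regenerating fibres of mammals. Non-muscle and smooth muscle myosins belong to the same families and serve cell shape, migration and vessel tone.

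Levels are TPM (transcripts per 1000000, which takes gene length into account) divided by a library scaling factor, called scaled TPM below. Factors ran from 0.595 to 1.92 and differed with the groups, from 0.965 to 1.92 in surface fish at 1 dpi and from 0.595 to 0.662 at 14 dpi. Between 11150 and 15146 genes reached 1 TPM in a library, and the depth in reads is unknown. Correlations between replicate libraries ran from 0.942 to 0.981. The labelled tissue carried its marker: ckma, the muscle creatine kinase gene, stood at 10233 to 41985 scaled TPM. The summed level of 15 fibre marker rows was 214382 to 279014 in surface controls and 46300 to 167784 at 1 dpi, and 140487 to 216521 in cave controls and 77093 to 110296 at 1 dpi. The row with the highest level was pvalb4, at 19628 to 242306 over all libraries, so the sum leans heavily on that gene. Of 6 heart marker rows, tbx5a, cmlc1, nkx2.5, gata4 and gata5 were listed at 0 in 19, 19, 18, 16 and 8 of the 20 libraries, and tnni1b in none. The heart rows summed to 8.64 to 12.9 scaled TPM in surface controls and 1.37 to 3.69 in cave controls. Nearly all of this sum was tnni1b, at 0.777 to 12.9 over all libraries, and no other heart row passed 0.245. tnni1b is also in the list of thin filament genes used below, so the sum does not stand for heart tissue. Skin markers summed to 8412 scaled TPM in cave 1 dpi replicate 3 and 2005 in cave control replicate 2, against at most 1817 in every other library. In bulk muscle, fewer fibres and less RNA per fibre cannot be told apart.

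Members spanned the whole range of expression, from regulatory light chains that were among the most abundant transcripts to genes listed at 0. Averaged over all libraries 7 members lay above 1000 scaled TPM, 9 between 100 and 1000, 11 between 10 and 100 and 8 at or below 10. The 5 most abundant members were mylpfa, MYLPF, mylz3, myl1 and mybphb, and they held 84.1% to 97.1% of all member TPM in each library. The first pair encode fast regulatory light chains, the next pair fast essential light chains, and mybphb a myosin binding protein H. Together the members took 10.5% to 13.5% of TPM in surface controls, 3.10% to 9.06% at 1 dpi, 11.7% to 12.06% at 7 dpi and 13.4% to 13.8% at 14 dpi. In cave fish the shares were 9.71% to 11.2% in controls, 6.33% to 9.14% at 1 dpi, 12.24% to 12.9% at 7 dpi and 13.3% to 13.7% at 14 dpi. At 1 dpi every library of either form had a smaller share than every control library of its form. No striated heavy chain with a name came near the fast light chain genes mylpfa, mylz3 and myl1. The highest striated heavy chain value was 332 scaled TPM, for myhb in cave 14 dpi replicate 2, against 101160 for mylpfa in surface control replicate 1. Other light chain genes lay in the range of the heavy chains, such as myl10 at 29.8 to 458 and myl13 at 22.2 to 389.

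**Figure D1:**
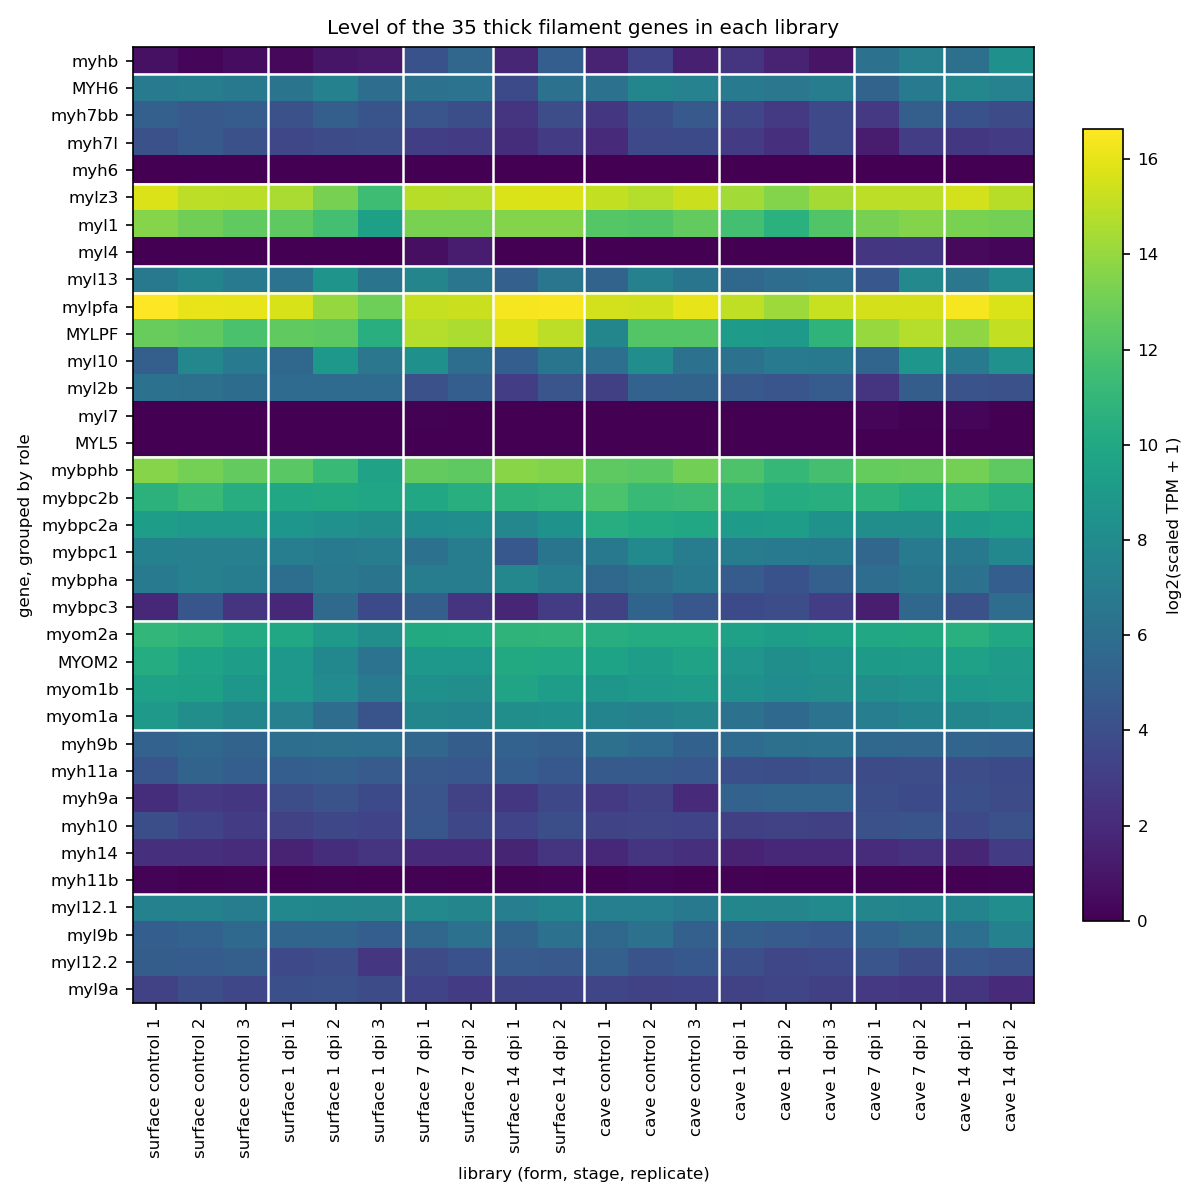
Level of each of the 35 members (rows, grouped by role and divided by white lines) in each of the 20 libraries (columns, by form, stage and replicate), as log2(scaled TPM + 1). The fast light chain genes mylz3, myl1 and mylpfa and the binding protein gene mybphb stay bright in nearly all columns and darken in surface 1 dpi replicate 3, while myh6, myl7, MYL5 and myh11b are dark throughout.

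A gene entered the tests when it reached 1 TPM in at least 2 libraries, which 31 of the 35 members did. MYL5 was listed at 0 in all 20 libraries. The row named myh6 in lower case was listed at 0 in 18 libraries and reached 0.02 TPM, and myl7, a heart regulatory light chain gene in zebrafish, was listed at 0 in 16 and reached 0.16 TPM. The smooth muscle row myh11b reached 0.13 TPM. Just inside the filter lay myl4, which reached 5.43 TPM, was at 1 TPM or more in 3 libraries and was listed at 0 in 14.

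One day after cardiotoxin 8 of 22 tested sarcomeric members were called lower in surface fish and 3 of 22 in cave fish, and none was called higher. The log2 change, called or not, was negative for 17 of the 22 in surface fish (median -0.62) and for 20 in cave fish (median -0.84). In surface fish at 1 dpi limma called 11 of the 31 tested members, 2 higher and 9 lower, where it called 14.8% of all 16884 genes tested, 8.35% higher and 6.41% lower. In cave fish at 1 dpi it called 7 members, 2 higher and 5 lower, beside 24.8% of all genes, 15.7% higher and 9.07% lower. The median log2 change was -0.32 over the members and 0.02 over all genes in surface fish, and -0.58 and 0.04 in cave fish. In cave fish the share of members called, 22.6%, was near that of all genes. Of the 9 non-muscle and smooth muscle members 2 were called higher and 1 lower in surface fish and 2 and 2 in cave fish. The 10 neutrophil marker rows moved at the same stage, from a sum of 8.27 to 11.1 scaled TPM in surface controls to 26.0 to 41.0 at 1 dpi and from 4.40 to 8.81 in cave controls to 50.3 to 112. Their part in the member results was not tested. Without scaling, where the median of all genes shifted to 0.57 in surface and 0.40 in cave fish, the members called were 5 higher and 8 lower in surface fish and 2 higher and 0 lower in cave fish. Fitted on the 6 libraries of the comparison alone, surface 1 dpi had 1 member called, myh9a, and cave 1 dpi had 11, 2 higher and 9 lower. With no filter on low values, surface 1 dpi had 7, 1 higher and 6 lower. The surface count was 5 without surface control replicate 1 and 7 without surface 1 dpi replicate 2 or 3, and the cave count was 4 without cave 1 dpi replicate 2 or 3 and 12 without surface 1 dpi replicate 3. Without the 2 libraries highest in skin markers, cave control replicate 2 and cave 1 dpi replicate 3, the cave count was 4, with 1 higher and 3 lower.

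Among the light chains of fast fibres, mylpfa was the most abundant member. It stood at 101160, 67814 and 65011 scaled TPM in the 3 surface controls and at 49235, 16677 and 7951 in the 3 surface libraries at 1 dpi. All injured libraries lay below all controls, and surface 1 dpi replicate 3 was the lowest of the 20. The log2 change was -2.03 (SE 0.51, limma adjusted p = 0.0147). In cave fish mylpfa stood at 45776, 44928 and 65540 in controls and at 33302, 18381 and 37637 at 1 dpi. These groups did not overlap either, but the log2 change of -0.85 (95% confidence interval -1.93 to 0.23) did not pass the test (limma adjusted p = 0.249). The surface call was lost without surface control replicate 1 (adjusted p = 0.0582), surface 1 dpi replicate 2 (0.0514) or surface 1 dpi replicate 3 (0.0502), and with quantile normalization (0.257).

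The fast essential light chain genes were also called lower in surface fish only, which is not a test of a difference between the forms. In surface fish mylz3 went from 55333, 32599 and 30395 scaled TPM in controls to 23044, 9688 and 2781 at 1 dpi, a log2 change of -2.15 (SE 0.55, limma adjusted p = 0.0158). The injured libraries were all below the controls, and the lowest was again replicate 3. In cave fish it went from 34678, 27519 and 40880 to 20756, 12092 and 21600, a log2 change of -0.95 that did not pass (adjusted p = 0.23). myl1, which encodes the other fast essential light chain, fell by 1.87 on the log2 scale in surface fish (SE 0.57, adjusted p = 0.038) and changed by -0.85 in cave fish (adjusted p = 0.307). Without surface control replicate 1 the adjusted p was 0.0653 for mylz3 and 0.133 for myl1. With quantile normalization the log2 change of mylz3 was -0.79 (0.0767) and that of myl1 -1.04 (0.159), and with no filter on low values the adjusted p was 0.0868 and 0.0779. The myl1 call was also lost without surface control replicate 2 (0.0715) or surface 1 dpi replicates 2 (0.0571) or 3 (0.13). The ratio of myl1 to mylz3 within a library does not depend on scaling. It was 0.203 to 0.250 in surface controls and 0.342 to 0.345 at 7 dpi, and 0.138 to 0.162 in cave controls and 0.297 to 0.367 at 7 dpi. All 7 dpi libraries of either form therefore lay above all controls of that form in this ratio. The surface libraries at 1 dpi (0.251 to 0.327) and the cave libraries at 14 dpi (0.220 to 0.307) also lay above their controls, the former narrowly. Surface fish at 14 dpi (0.212 to 0.231) and cave fish at 1 dpi (0.131 to 0.203) overlapped theirs.

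**Figure D2:**
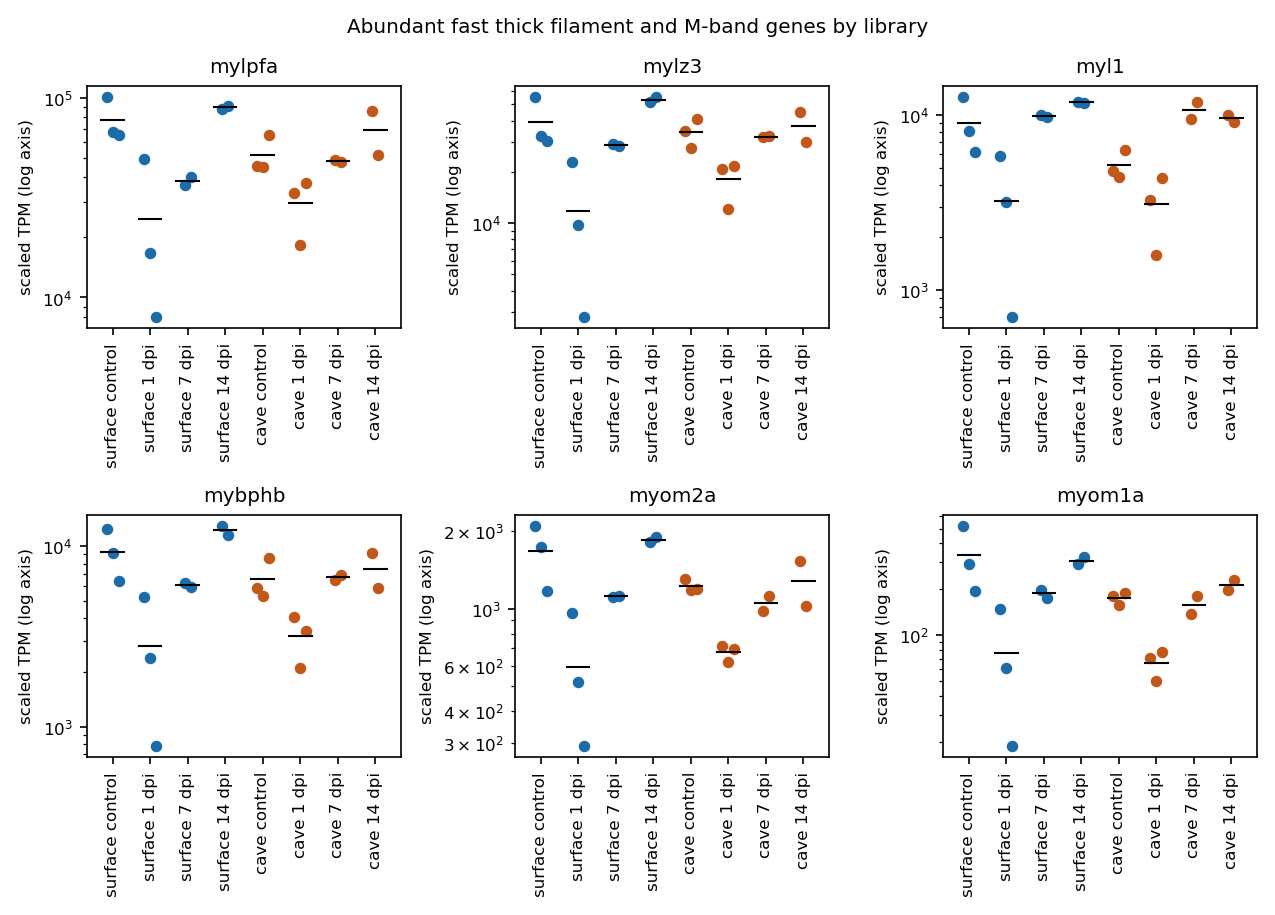
Scaled TPM (log axis) of 6 abundant fast thick filament and M-band genes in every library, with 1 point per library, a line at each group mean, surface fish in blue and cave fish in orange. In each panel the 1 dpi libraries reach below the controls of their form, down to 7951 for mylpfa in surface 1 dpi replicate 3, and the surface 14 dpi libraries lie within or near the range of the surface controls.

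Among the myosin binding protein genes limma called mybphb lower at 1 dpi in surface fish and mybpc2a, mybpc2b and mybpha lower in cave fish. mybphb, the most abundant of the 6 genes, went from 12432, 9195 and 6383 scaled TPM in surface controls to 5236, 2391 and 777 at 1 dpi. The injured libraries lay below the controls, with a log2 change of -2.08 (SE 0.51, limma adjusted p = 0.0127; 0.0531 without surface control replicate 1). Cave fish went from 5843, 5271 and 8602 to 4055, 2116 and 3389, with no overlap and a log2 change of -1.06 that did not pass (adjusted p = 0.142). mybpc2a encodes a fast myosin binding protein C. It went from 1334, 1146 and 961 in cave controls to 547, 606 and 358 at 1 dpi (log2 change -1.21, SE 0.24, adjusted p = 0.0018). In surface fish it went from 631, 508 and 515 to 420, 341 and 298, again without overlap, and the change of -0.65 did not pass (adjusted p = 0.0834). At 7 dpi mybpc2a was at 301 and 294 in cave fish, the lowest of any cave group, with a log2 change of -1.93 from control (SE 0.27, adjusted p = 0.000752) that passed under all 28 alternatives run. At 7 dpi in surface fish it was at 274 and 284, with a change of -0.97 (adjusted p = 0.0509).

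mybpc2b, the more abundant copy, stood at 3940, 2414 and 2690 scaled TPM in cave controls and at 1793, 1253 and 1384 at 1 dpi. The injured libraries were all below the controls, and the log2 change was -1.01 (SE 0.28, limma adjusted p = 0.0155). This call was lost without cave control replicate 1 (adjusted p = 0.0772) or cave 1 dpi replicate 2 (0.0643). mybpha, a second myosin binding protein H gene, stood at 48.5, 70.5 and 107 in cave controls and at 27.3, 17.5 and 33.3 at 1 dpi, a log2 change of -1.47 (SE 0.34, adjusted p = 0.0056). It stood at 114, 152 and 132 in surface controls and 62.9, 99.7 and 84.8 at 1 dpi. Every cave library of these stages was therefore below every surface library of the same stage. Without scaling no cave call of this paragraph or of mybpc2a at 1 dpi remained, with adjusted p of 0.107 for mybpc2a, 0.241 for mybpc2b and 0.0551 for mybpha. With quantile normalization mybpc2a (0.0531) and mybpc2b (0.158) were not called at 1 dpi either.

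All 4 myomesin genes were called lower in surface fish at 1 dpi, beside 6.41% of all genes, and 0 of the 4 in cave fish, beside 9.07%. In cave fish their limma adjusted p ran from 0.0546 to 0.156. The unadjusted p there was under 0.05 for 3 of the 4 and for 6149 of all 16884 genes. The test of a difference in response between the forms, given below, called 0 of the 4. myom2a, the most abundant myomesin gene, stood at 2095, 1739 and 1171 scaled TPM in surface controls and at 964, 517 and 291 at 1 dpi. No injured library reached the lowest control, and the log2 change was -1.62 (SE 0.33, limma adjusted p = 0.00451). In cave fish it went from 1301, 1179 and 1191 to 715, 621 and 697, a log2 change of -0.85 that did not pass (adjusted p = 0.0707). myom1a showed the largest fall of any member in surface fish at 1 dpi, from 520, 294 and 195 to 149, 61.6 and 18.8 (log2 change -2.45, SE 0.51, adjusted p = 0.0053). Its change in cave fish was -1.41 (adjusted p = 0.0546), from 182, 157 and 188 to 71.4, 49.97 and 77.8. Neither form had an injured library within its control range.

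MYOM2, a second myomesin 2 row, went from 1251, 787 and 618 scaled TPM in surface controls to 463, 219 and 78.0 at 1 dpi (log2 change -2.08, SE 0.44, limma adjusted p = 0.0055). The fourth gene, myom1b, fell by 1.31 on the log2 scale (adjusted p = 0.0233), although its highest injured library at 474 lay above its lowest control at 440. The myom1b call was lost without surface control replicate 1 (0.0809) or 2 (0.0677), surface 1 dpi replicate 2 (0.0517) or 3 (0.0767) and with unscaled TPM (0.109).

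At 7 dpi mylpfa stood at 36661 and 40142 scaled TPM in surface fish, still below all surface controls, and at 49174 and 48034 in cave fish, within the cave control range. At 14 dpi it stood at 88094 and 91339 in surface fish, within the control range, and at 85707 and 51997 in cave fish. None of these log2 changes passed the test (-0.99 and -0.08 at 7 dpi in surface and cave fish, 0.23 and 0.38 at 14 dpi; limma adjusted p of 0.351 to 0.965). limma called 2 members higher and 0 lower in surface fish at 7 dpi, beside 3.11% of all genes higher and 1.48% lower (4.59% in all). In cave fish at 7 dpi it called 3 higher and 2 lower (5.36% and 2.02% of all genes, 7.38% in all), and at 14 dpi 4 higher and 2 lower (6.22% and 3.87%, 10.1% in all). In each form 1 of the higher calls at 7 dpi was myl4. That gene entered the tests only through 7 dpi libraries, so its calls are no support. In surface fish at 14 dpi limma called 0 members and 0% of all genes, with 8 members and 1593 genes at an unadjusted p under 0.05. The stages of a form share their controls, so these counts are not independent. In cave fish the 7 dpi count was 3 without cave control replicate 1, cave 1 dpi replicate 1 or cave 7 dpi replicate 1 and 2 without cave 7 dpi replicate 2, and the 14 dpi count was 2 without cave control replicate 1 and 1 without cave 14 dpi replicate 2. The surface 7 dpi count was 1 without surface 7 dpi replicate 1 and 4 without either surface 14 dpi library, and the surface 14 dpi count was 1 without surface 14 dpi replicate 1.

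MYLPF, the second fast regulatory light chain gene, differed from mylpfa in its course. It stood at 6942, 6005 and 3709 scaled TPM in surface controls, 6131, 5448 and 1349 at 1 dpi, 28446 and 24899 at 7 dpi and 54007 and 31611 at 14 dpi. The later libraries all lay above the controls, yet neither log2 change passed the test: 2.31 at 7 dpi (SE 1.08, limma adjusted p = 0.243) and 2.94 at 14 dpi (SE 1.08, adjusted p = 0.39). Cave fish had 194, 4603 and 4695 in controls, 587, 485 and 1809 at 1 dpi, 17052 and 28204 at 7 dpi and 14678 and 35506 at 14 dpi. Cave control replicate 1 was the lowest library of all for this gene, and every later library was above every control. The log2 changes were 3.76 at 7 dpi (SE 1.08, adjusted p = 0.0466) and 3.82 at 14 dpi (adjusted p = 0.0378). The 7 dpi call lay close to the threshold and was lost without cave control replicate 1 (0.0982), cave 7 dpi replicates 1 (0.159) or 2 (0.277), with replicate numbers as a block (0.0629), and with any 1 of 9 other libraries left out (0.0509 to 0.0589). The 14 dpi call was lost without cave control replicate 1 (0.0794) or cave 14 dpi replicates 1 (0.0773) or 2 (0.214) and with the block (0.051).

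Set against mylpfa within the same library, which removes the scaling, MYLPF was 5.71% to 8.86% of mylpfa in surface controls, 12.5% to 32.7% at 1 dpi, 62.0% to 77.6% at 7 dpi and 34.6% to 61.3% at 14 dpi. In cave fish it was 0.423% to 10.2% in controls, 1.76% to 4.81% at 1 dpi, 34.7% to 58.7% at 7 dpi and 17.1% to 68.3% at 14 dpi. The later libraries of either form were all above that form's controls. Reads that match both copies are shared out by estimate in RSEM, so the split between paralogs is uncertain where their sequences are alike. How alike they are was not examined, here or for myl12.1 and myl12.2, the myosin heavy chains, the mybpc2 pair and the myomesin 2 pair.

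myhb, a sarcomeric myosin heavy chain gene, was close to 0 in the surface controls. Its values were 0.684, 0.167 and 0.444 scaled TPM in surface controls, 0.280, 0.948 and 1.16 at 1 dpi, 17.5 and 43.2 at 7 dpi and 2.44 and 30.3 at 14 dpi. The log2 change was 4.34 at 7 dpi (SE 0.85, limma adjusted p = 0.0138) and 2.87 at 14 dpi, which did not pass (adjusted p = 0.265). In cave fish myhb stood at 1.97, 9.08 and 1.805 in controls, 5.04, 2.11 and 0.797 at 1 dpi, 76.2 and 152 at 7 dpi and 68.6 and 332 at 14 dpi. All libraries at 7 and 14 dpi were above all controls in both forms. The cave log2 changes were 4.63 at 7 dpi (SE 0.85, adjusted p = 0.0054) and 5.12 at 14 dpi (SE 0.85, adjusted p = 0.00402). On leaving out single libraries the surface 7 dpi call was lost without either 7 dpi library (0.0781 and 0.0731) and the cave 7 dpi call without replicate 2 (0.0922). The cave 14 dpi call was lost on fitting its own groups alone (0.0821).

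myl4, which encodes an essential light chain of embryonic and atrial muscle in mammals, was listed at 0 in all 12 libraries of controls and 1 dpi. At 7 dpi it was at 0.621 and 1.44 scaled TPM in surface fish and at 5.27 and 5.38 in cave fish. At 14 dpi both surface libraries were again listed at 0 and the cave libraries were at 0.361 and 0.213. The gene reached 1 TPM in 3 libraries, all of them at 7 dpi, and entered the tests only through them, so it had to differ at that stage. limma's calls of it at 7 dpi are counted among the members called but are no support, and its values are a description. On the log2(scaled TPM + 1) scale the difference from control at 7 dpi was 0.99 in surface and 2.66 in cave fish. Since the controls are listed at 0, no fold is given. Of the 6 heart marker rows, tbx5a, cmlc1, nkx2.5, gata5 and gata4 reached at most 0.167, 0.195, 0.0291, 0.245 and 0.118 scaled TPM in any library, and tnni1b ran from 0.777 to 12.9.

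**Figure D3:**
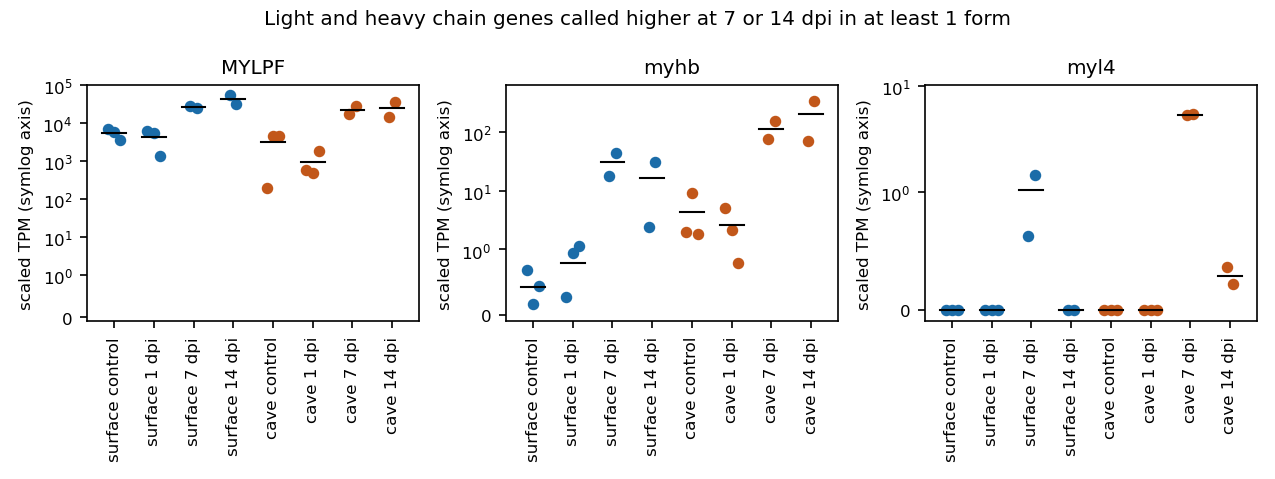
Scaled TPM (symmetric log axis, linear below 1) of MYLPF, myhb and myl4 in every library, with 1 point per library and a line at each group mean, surface fish in blue and cave fish in orange. The 7 dpi libraries of both forms stand above all controls in each panel, and myl4 is at 0 in controls and at 1 dpi.

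Members of slow and cardiac type had no call against controls and, like several fast members, varied widely between replicates. MYH6, named after an atrial heavy chain gene of mammals and the most abundant of its class, stood at 122, 124 and 104 scaled TPM in surface controls, 82.8, 158 and 61.8 at 1 dpi, 74.6 and 78.5 at 7 dpi and 12.5 and 72.5 at 14 dpi. The cave values in the same order of stages were 75.6, 193 and 167, then 118, 96.0 and 133, then 38.8 and 119, then 210 and 161. Every injured cave group and the surface libraries at 1 dpi overlapped the controls of their form, and the surface libraries at 7 and 14 dpi lay below theirs. In surface fish myl2b also lay below all controls at both stages, at 7.18 to 30.2 against 59.1 to 71.6. The same held for myh7l (3.53 to 7.54 against 16.2 to 24.2) and myh7bb (4.57 to 19.9 against 23.7 to 33.7). mybpc1 stood at 23.4 to 129 against 149 to 157. In surface fish at 7 dpi myl10, myl13 and mybpc3 overlapped their controls. At 14 dpi myl13 lay below its surface controls, at 33.3 and 91.5 against 104 to 183, and myl10 and mybpc3 overlapped theirs. In cave fish all these genes overlapped their controls at both stages. Slow and cardiac heavy chains changed by -1.90 to -1.64 in surface fish at 14 dpi, uncalled. The log2 changes of myl10, a regulatory light chain gene, and of mybpc3, the cardiac myosin binding protein C gene of mammals, ran from -0.80 to 0.82 and from -0.92 to 0.90 with SEs of 0.998 to 1.12 and 1.098 to 1.23 over the 6 injury comparisons. Within groups myl10 and mybpc3 differed up to 10.2-fold and 28.6-fold between libraries, and MYH6 and mybpc1 up to 5.82-fold and 3.71-fold. Among fast members the highest was 24.2-fold for MYLPF, 8.38-fold for myl1, 6.19-fold for mylpfa and 1.85-fold for mybpc2b. The library highest in myl10 was also the highest in mybpc3 in 8 of 8 groups, in myl13 in 7, in MYH6 and myh7l in 5, in mybpc1 and myh7bb in 4 and in myl2b in 3. For the fast genes mylz3, MYLPF and mybpc2b the count was 3, for myl1, mybphb and the myomesin gene myom2a 2 and for mylpfa 1. With 2 or 3 libraries a group, several such matches arise without any link between genes. Only the counts of mybpc3 and myl13 stood well apart from those of the fast genes, and myl2b matched no more often than mylz3. The share of slow fibres in each sample was not tested.

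The non-muscle gene myh9a rose at 1 dpi in both forms, and the smooth muscle gene myh11a was called lower in cave fish at each stage. myh9a, a non-muscle heavy chain gene used in cell migration and contraction, stood at 3.58, 5.69 and 5.29 scaled TPM in surface controls and at 14.5, 18.4 and 12.4 at 1 dpi. In cave fish it stood at 6.22, 8.68 and 2.94 in controls and at 36.4, 42.7 and 42.5 at 1 dpi. Injured libraries were above controls in both forms, and the cave libraries at 1 dpi were above all others in the study. The log2 changes were 1.46 in surface fish (SE 0.34, limma adjusted p = 0.00925) and 2.67 in cave fish (SE 0.34, adjusted p = 5.14e-05), and these calls passed under all 29 and 28 alternatives run. At 14 dpi in cave fish, at 15.9 and 13.5, myh9a was still called (log2 change 1.27, adjusted p = 0.0453), but this call was lost with any 1 of 13 libraries left out, with adjusted p of up to 0.178 (without cave 14 dpi replicate 1). Its paralog myh9b, the most abundant non-muscle heavy chain gene, stood at 35.7, 46.9 and 39.0 in surface controls and at 62.1, 69.6 and 67.5 at 1 dpi. These groups did not overlap (log2 change 0.71, SE 0.22, adjusted p = 0.0421), and in cave fish they did, at 67.9, 54.3 and 34.1 against 54.3, 69.4 and 71.5. The myh9b call was lost with any 1 of 9 libraries left out (0.0512 to 0.134, the highest without surface control replicate 1).

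myh11a, the smooth muscle heavy chain gene, stood at 25.6, 25.1 and 21.7 scaled TPM in cave controls, 16.02, 14.8 and 16.4 at 1 dpi, 13.8 and 14.07 at 7 dpi and 14.1 and 12.5 at 14 dpi. Every injured cave library lay below every cave control, with log2 changes of -0.58 (limma adjusted p = 0.0289), -0.75 (0.0377) and -0.82 (0.0235), each with an SE of 0.18 to 0.20. In surface fish it stood at 21.0, 37.6 and 30.3 in controls and at 30.1, 32.7 and 25.8 at 1 dpi, within the control range. The 10 smooth muscle marker rows summed to 1309 to 1888 in cave controls, 1877 to 2294 at 1 dpi, 2002 to 2572 at 7 dpi and 1951 to 5925 at 14 dpi. Most of this sum was desma, the desmin gene, at 694 to 5788 over all libraries, so the sum mainly follows that gene. mylka, a light chain kinase gene and 1 of these 10 rows, fell in cave fish at each stage (log2 changes of -0.85, -0.70 and -0.88). The other rows were not followed singly, so neither mylka nor the sum stands for the list. The part of smooth muscle cells in the myh11a result was not tested. The cave myh11a calls were each lost without cave control replicate 1 (0.0891, 0.0977 and 0.0656) or 2 (0.0731, 0.0892 and 0.0587) and with unscaled TPM (0.862, 0.259 and 0.0999). Unscaled, the log2 change at 1 dpi was -0.08. The unscaled 1 dpi values of 20.6, 24.3 and 20.6 TPM lay within the range of the controls, at 26.3, 25.9 and 18.1. At 1 dpi leaving out any 1 of the injured libraries also ended the call (0.0595, 0.0939 and 0.0593), as it did at 7 dpi (0.186 and 0.192) and 14 dpi (0.0626 and 0.127), and the 7 dpi call was further lost without cave control replicate 3 (0.0604) or cave 1 dpi replicate 1 (0.0504). myl9a, a smooth muscle type regulatory light chain gene, was at 10.01, 8.67 and 9.27 in cave controls and at 5.03 and 3.20 at 14 dpi, with a log2 change of -1.03 (SE 0.21, adjusted p = 0.0116; 0.0969 without cave 14 dpi replicate 2).

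The non-muscle regulatory light chain genes myl12.1 and myl12.2 moved in opposite directions at 1 dpi. myl12.2 went from 28.8, 27.3 and 31.1 scaled TPM in surface controls to 11.9, 14.5 and 5.32 (log2 change -1.48, SE 0.28, limma adjusted p = 0.00335, the smallest of any member in surface fish). In cave fish it went from 33.2, 19.0 and 23.0 to 15.5, 10.6 and 12.0 (log2 change -0.91, SE 0.28, adjusted p = 0.0296). No injured library overlapped the controls in either form. myl12.1 went from 143, 141 and 104 to 198, 190 and 238 in cave fish (log2 change 0.69, SE 0.20, adjusted p = 0.0196), and in surface fish from 158, 157 and 128 to 214, 201 and 185, where the change of 0.44 did not pass (adjusted p = 0.159). The ratio of myl12.1 to myl12.2, which does not depend on scaling, was 4.12 to 5.73 in surface controls and 13.9 to 34.7 at 1 dpi, and 4.31 to 7.43 in cave controls and 12.8 to 19.9 at 1 dpi. The 1 dpi libraries of both forms lay above the controls in this ratio. So did the 7 dpi libraries, at 11.0 to 16.4 in surface and 9.48 to 14.1 in cave fish. At 14 dpi the cave libraries (7.95 to 15.5) lay above their controls and the surface libraries (5.03 to 7.42) overlapped theirs. At 14 dpi myl12.1 stood at 177 and 286 in cave fish (log2 change 0.81, SE 0.22, adjusted p = 0.0346). In cave fish at 1 dpi the myl12.2 call was lost without cave control replicate 1 (0.132) or 3 (0.0594) or cave 1 dpi replicate 2 (0.108) or 3 (0.0814), and the myl12.1 call without cave control replicate 3 (0.0994) or cave 1 dpi replicate 3 (0.0788). The myl12.1 call at 14 dpi was lost without any 1 of the cave controls (0.0567, 0.0539 and 0.109) or without cave 14 dpi replicate 2 (0.328).

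**Figure D4:**
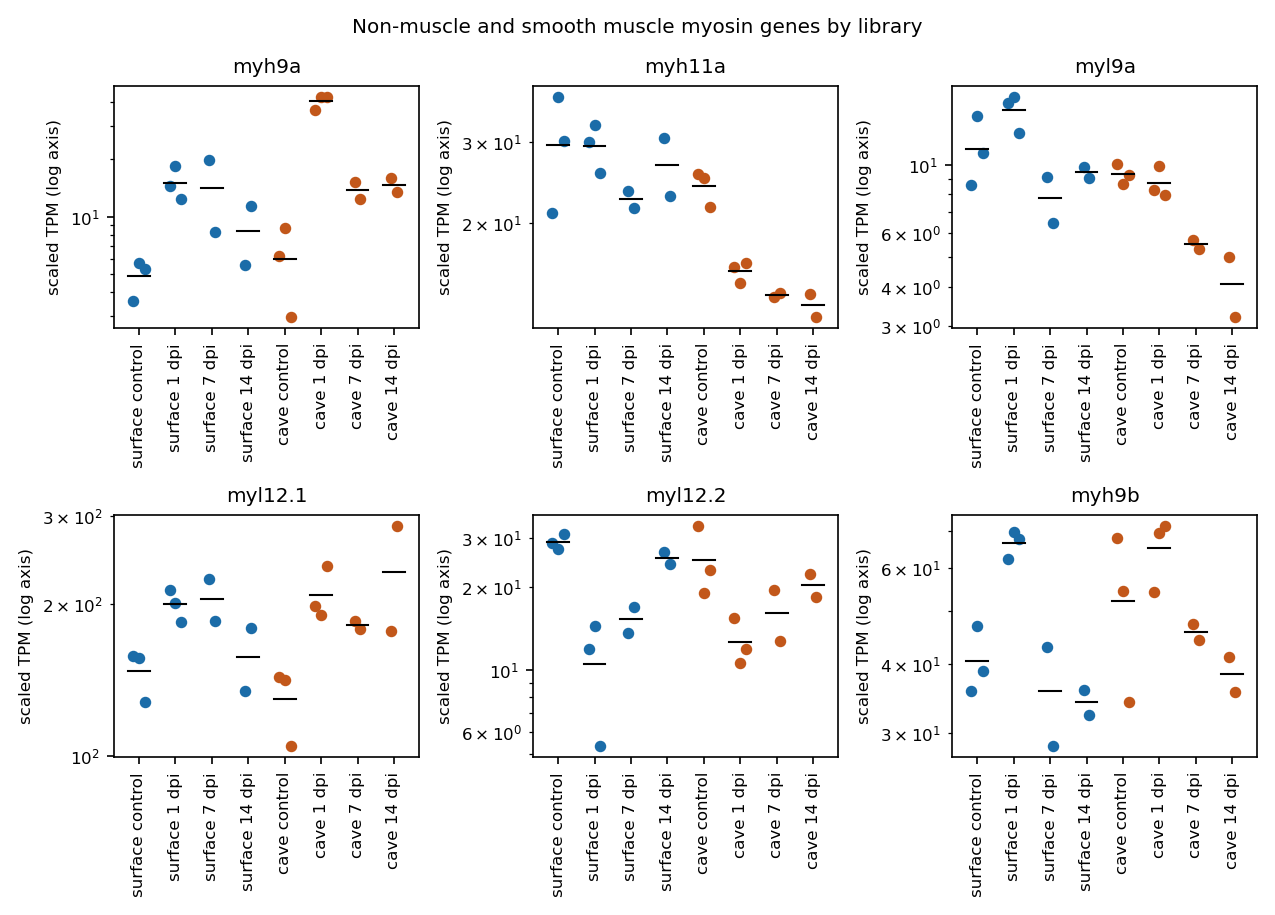
Scaled TPM (log axis) of 6 non-muscle and smooth muscle myosin genes in every library, with 1 point per library, a line at each group mean, surface fish in blue and cave fish in orange. myh9a is highest in the cave 1 dpi libraries, at 36.4 to 42.7, and myh11a in injured cave libraries lies at 12.5 to 16.4, below the cave controls at 21.7 to 25.6.

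Cave and surface fish were then compared within each stage. In controls limma called 1 member, mybpc2a, beside 8.74% of all genes, 4.58% higher and 4.16% lower, with 1334, 1146 and 961 scaled TPM in cave and 631, 508 and 515 in surface fish (log2 difference 1.05, SE 0.24, adjusted p = 0.0113; 0.06 without cave control replicate 1). The cave libraries were all higher. At 1 dpi it called 1 member higher and 3 lower in cave fish, beside 7.07% and 4.56% of all genes (11.6% in all). The higher one was myh9a (log2 difference 1.38, SE 0.34, adjusted p = 0.0157; 0.0616 without surface 1 dpi replicate 3 and 0.0557 without cave 1 dpi replicate 2). The lower ones were mybpha (-1.65, SE 0.34, adjusted p = 0.0063), myh11a (-0.86, adjusted p = 0.00712; 0.0614 with unscaled TPM) and myl9a (-0.72, adjusted p = 0.024). myl9a stood at 15.8, 16.6 and 12.6 in surface and 8.24, 9.88 and 7.97 in cave fish at 1 dpi, with no overlap, and its call was lost without surface 1 dpi replicates 1 (0.0761) or 2 (0.0891) or cave 1 dpi replicates 1 (0.0718) or 3 (0.083). The mybpha difference at 1 dpi passed under all 28 alternatives run.

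At 7 dpi the 1 member called between the forms was myl4, which entered the tests through its 7 dpi libraries alone, so the call is no support (log2 difference 1.67). Of all genes 4.56% were called, 2.55% higher and 2.01% lower, and 2 members were called without surface control replicate 1. At 14 dpi 3 members were called higher in cave fish and 3 lower, beside 6.92% and 5.24% of all genes (12.2% in all). myhb, mybpc2a and MYH6 were the higher ones, with log2 differences of 3.88 (adjusted p = 0.016), 1.15 (0.021) and 2.56 (0.0227). mybpha, myh11a and myl9a were the lower ones, with differences of -1.74 (0.0164), -0.95 (0.0144) and -1.05 (0.0109). For mybpc2a the values were 586 and 668 in cave against 210 and 374 in surface fish, and for mybpha 73.5 and 30.9 against 205 and 127. The cave and surface libraries did not overlap for any of the 6. Of these calls 0 remained without surface 14 dpi replicate 1, without cave 14 dpi replicate 2, or on fitting the 4 libraries at 14 dpi alone. With unscaled TPM the split at 14 dpi was 4 higher and 0 lower, with the median of all genes at 0.39.

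Whether the response to injury itself differed between the forms was tested with the interaction of form and stage. At 1 dpi limma called 0 of the 31 members, beside 0.113% of all genes (0.0948% higher and 0.0178% lower). The unadjusted p was under 0.05 for 2 of the 31 members and for 1636 of all 16884 genes. The calls made in surface fish alone at 1 dpi are therefore not shown to be absent in cave fish. For these the interaction was, for example, 1.18 for mylpfa (95% confidence interval -0.35 to 2.71) and 1.03 for myom1a (-0.50 to 2.57). For myh9a, which was called higher in both forms and rose more in cave fish, it was 1.21 (0.20 to 2.22, limma adjusted p = 0.436). At 7 dpi it called 1 member, myl4, beside 0.0474% of all genes (0.0296% higher and 0.0178% lower). Since its controls are listed at 0 in both forms, this interaction of 1.67 repeats the difference between the forms at 7 dpi, and it is no support for the same reason. With a pseudocount of 0.1 in place of 1 its adjusted p was 0.923, and 0 members were called without surface 7 dpi replicate 1 or either cave 7 dpi library. At 14 dpi limma called 0 members, beside 0.0296% of all genes (0.0118% higher and 0.0178% lower). An unadjusted p under 0.05 was found for 7 of the 31 members and for 2647 of all 16884 genes. Without surface 14 dpi replicate 2 limma called 1 member.

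**Figure D5:**
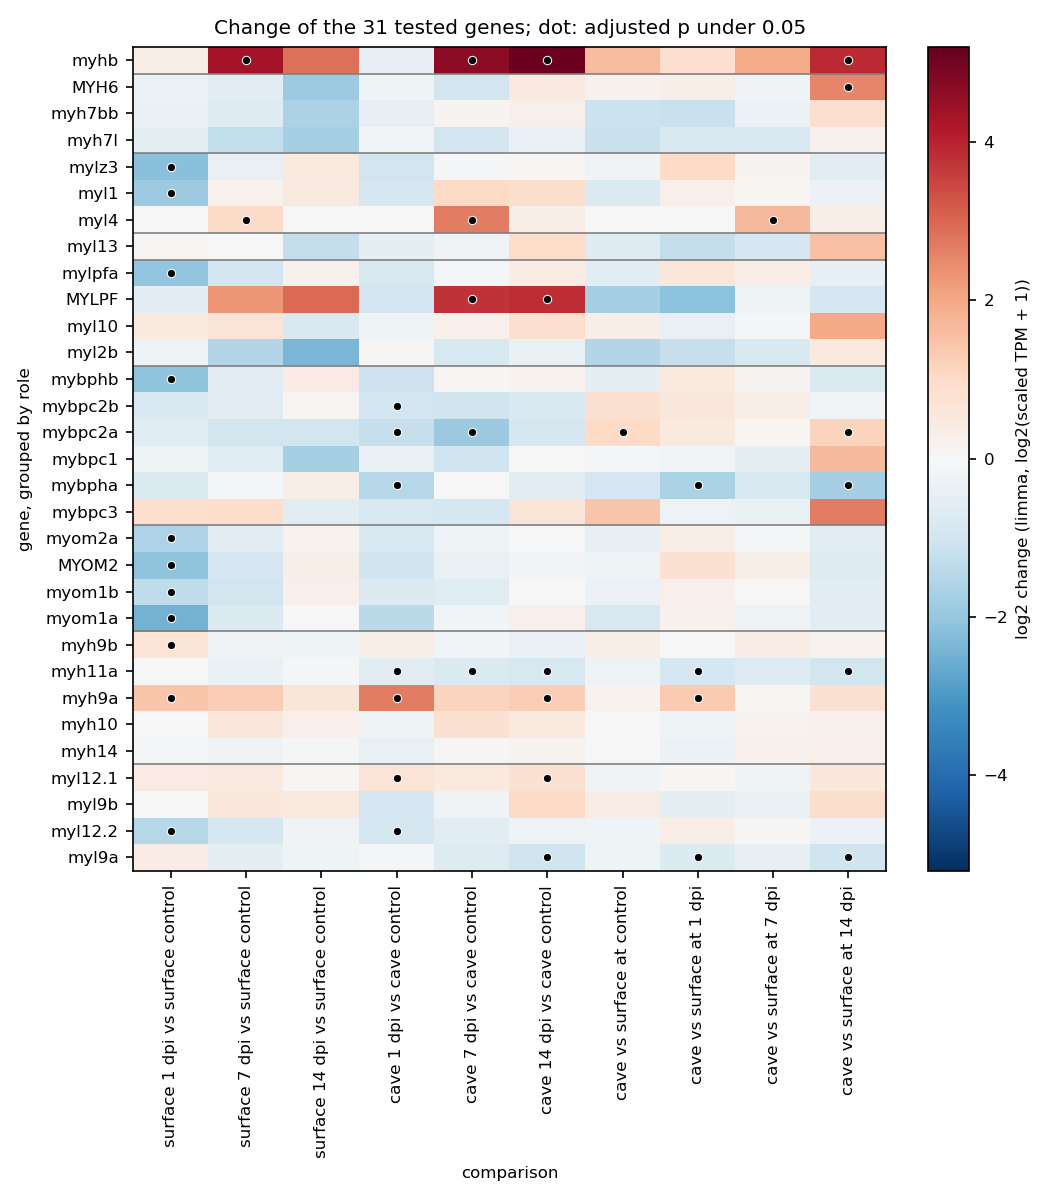
limma log2 change of the 31 tested members (rows, grouped by role) in 10 comparisons (columns: injury against control by form, then cave against surface fish by stage), with a dot where the adjusted p is under 0.05. Dots on lower values stand in fast light chain and all myomesin rows of surface fish at 1 dpi and in 3 binding protein rows of cave fish at 1 dpi, and myhb carries dots at 7 dpi in both forms and at 14 dpi in cave fish.

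Other genes around the thick filament were read from the same fit, by lists of symbols. Of 13 tested genes in a list of chaperones, not all particular to myosin, and thick filament assembly factors, 1 rose and 2 fell at 1 dpi in each form. Of all genes 14.8% were called in surface and 24.8% in cave fish. The riser was hsp90ab1, which encodes an HSP90 chaperone, at 76.3 to 86.7 scaled TPM in surface controls and 225 to 264 at 1 dpi (log2 change 1.60, limma adjusted p = 0.000185), and at 87.5 to 103 and 273 to 391 in cave fish (1.77, adjusted p = 1.57e-05). The muscle methyltransferase genes smyd1a in surface fish (-1.65, adjusted p = 0.0264) and smyd1b in cave fish (-1.25, adjusted p = 0.0183) were among the genes that fell.

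Of 29 tested partners of titin, the M-band and the Z-disc, 3 rose and 10 fell in surface fish at 1 dpi and 1 rose and 10 fell in cave fish, beside 14.8% and 24.8% of all genes called. In surface fish these included nrap (-0.89, limma adjusted p = 0.00301), the Z-disc gene myoz1a (-1.49, adjusted p = 0.00557) and actn3a, the fast alpha-actinin gene (-1.90, adjusted p = 0.00695). In cave fish they included actn3b (-1.18, adjusted p = 0.000918) and trim55a, a ubiquitin ligase gene of the M-band (-1.08, adjusted p = 0.00103). The list's median was -0.22 in surface and -0.72 in cave fish, beside 0.02 and 0.04 over all genes. At 7 dpi ankrd1b, an ankyrin repeat gene whose mammalian product binds titin, went from 0 to 0.728 scaled TPM in surface controls to 88.2 to 160 (log2 change 6.54, adjusted p = 6.67e-05), and from 0 to 0.475 in cave controls to 172 to 186 (7.25, adjusted p = 9.53e-06). No control library had ankrd1b at 1 TPM, so it entered the tests through injured libraries. Its p-values are therefore little support, and the values are a description.

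Of 27 tested thin filament genes 0 rose and 5 fell in surface fish at 1 dpi, and 1 rose and 8 fell in cave fish, beside 14.8% and 24.8% of all genes called. At 7 dpi 4 rose and 0 fell in surface fish and 3 rose and 2 fell in cave fish, beside 4.59% and 7.38%. The embryonic and cardiac-type actin gene actc1a went from 0.596 to 2.41 scaled TPM in surface controls to 487 to 516 at 7 dpi (log2 change 7.92, limma adjusted p = 0.00248), and from 5.84 to 34.8 to 546 to 569 in cave fish (4.88, adjusted p = 0.0212). The troponin genes tnni2b.1 (6.98 and 7.17) and tnnt2c (4.07 and 4.07) rose in surface and cave fish at the same stage. Of 13 tested light chain kinase and phosphatase genes 2 rose and 1 fell in surface fish at 1 dpi and 1 rose and 3 fell in cave fish, again beside 14.8% and 24.8%. ppp1r12c, a regulatory subunit of the myosin phosphatase, rose in each form (1.07, adjusted p = 0.00095; 1.53, adjusted p = 1.9e-05), and the muscle kinase gene mylk4b fell in each (-0.98, adjusted p = 0.012; -1.12, adjusted p = 0.00268). Of 17 tested myogenic regulators 2 rose at 7 dpi in surface fish, and 4 rose and 1 fell in cave fish, beside 4.59% and 7.38%. Among them was myog, a transcription factor gene of muscle differentiation, at 0.943 to 17.7 scaled TPM in surface controls and 47.0 to 63.3 at 7 dpi (3.24, adjusted p = 0.0264), and at 1.11 to 6.84 and 100 to 103 in cave fish (4.37, adjusted p = 0.00344).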

How the data were processed

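Polyadenylated RNA of skeletal muscle was read in 20 libraries as single reads of 75 bases from stranded libraries, per the labels' protocols. The deposited table holds TPM values per Ensembl gene row, made by the authors with RSEM 1.3.0 after STAR 2.7.3a, per the submitters' processing notes. No build or annotation version is given in the sources used here. TPM sums to 1000000 in each library, so depth is unknown and no count test, counting interval or detection floor was used.

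TPM was divided by median-of-ratios factors taken over the 9467 genes at 1 TPM or more throughout. Tests were run on 16884 genes that reached 1 TPM in 2 or more libraries. log2(scaled TPM + 1) was fitted with limma 3.58.1 in R 4.3.3, as 8 group means from the 20 libraries together, with a mean-variance trend and 12 residual degrees of freedom. In each of 13 comparisons a Benjamini-Hochberg adjusted p under 0.05 over all genes kept called a gene. Log2 changes are on this scale, which understates changes of low genes. The code was tested on simulated data.

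The members and lists were chosen with earlier results of these data known. Values in every library were given for the most abundant member of each role, for up to 5 rising and 5 falling called members per comparison, and for called interactions. Up to 3 called genes per other list and comparison were named. Libraries of surface controls and surface 1 dpi with the same replicate number deviated together (correlations 0.137, 0.108 and 0.235). With that number as a block the comparison called 12 members in place of 11. The alternatives tried were unscaled TPM, a mean of 5 TPM or more, no filter on low values, a pseudocount of 0.1, quantile normalization, the compared groups alone, replicate blocks and each library left out.

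Of the 35 symbols 29 were found in the RefSeq gene table of assembly AstMex3_surface, in which 1 pair of members, myom1b and myl12.1, are neighbours. No sequence or position is given. An item of the family is not reported here.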

Additional observations from a re-analysis of the deposited data

Results flagged for a closer look

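The difference between forms in the response of myl4 at 7 dpi was 1.67 on the log2(scaled TPM + 1) scale (limma adjusted p = 0.00852). myl4 entered the tests only through libraries at 7 dpi and is listed at 0 in all controls, so this test is no support for a difference in response, and the values in each library are given as a description.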

How the results depend on the processing

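Of the 44 member calls 5 were kept under every alternative in which the gene was tested. They were myh9a at 1 dpi in each form, mybpc2a and myl4 in cave fish at 7 dpi, and mybpha between forms at 1 dpi. myl4 was not tested with a mean of at least 5 TPM. It entered the tests only through its 7 dpi libraries, so its call is no support. The other 39 were lost under at least 1 alternative. With the compared groups alone the counts of called members were 1 (surface 1 dpi), 0 (surface 7 dpi), 11 (cave 1 dpi), 0 (cave 14 dpi), 0 (cave against surface fish at 7 dpi), 0 (at 14 dpi) and 0 (interaction at 7 dpi); this setting fits fewer libraries. With unscaled TPM they were 2 in cave fish at 1 dpi, 3 at 14 dpi, and 2 between forms in controls and 2 at 1 dpi. With no filter on low values surface fish at 1 dpi had 7. With a mean of at least 5 TPM they were 0 between forms at 7 dpi and 0 for its interaction, since myl4 was not tested, and with a pseudocount of 0.1 the interaction count was 0. The causes of these moves were otherwise not tested. Counts under alternatives, in this section and above, are given without the share of all genes called in the same run. A change in such a count is therefore not shown to be particular to the members. Quantile normalization gave 3 higher and 4 lower in cave fish at 7 dpi and 5 higher and 3 lower between forms at 14 dpi.

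Leaving out 1 library at a time, the counts ran from 5 to 11, 1 to 4 and 0 to 1 in surface fish at 1, 7 and 14 dpi, and from 4 to 12, 2 to 5 and 1 to 7 in cave fish. Between the forms they ran from 0 to 1 in controls, 3 to 5 at 1 dpi, 1 to 2 at 7 dpi and 0 to 7 at 14 dpi, and for the interactions from 0 to 0, 0 to 1 and 0 to 1. Without the 2 libraries highest in skin markers, an alternative chosen after seeing the data, cave fish at 1 dpi had 4 calls.

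Of the other groups none had 3 same-numbered pairs that all correlated above 0.1, and the labels name no shared fish or batch, so their numbers were not taken as pairs. Groups of 2 libraries could not have 3 pairs. With 2 pairs, cave controls and cave 7 dpi gave 0.259 and 0.190. Cave 7 and 14 dpi gave 0.176, which is the same for both pairs by construction, since 2 deviations from a mean mirror each other. Over 62 pairs with the same number the median correlation of deviations was 0.0288, against -0.0178 over 112 pairs with different numbers. Between groups of 2 libraries, pairs with different numbers give the same value with the opposite sign, so these medians are not independent. With a replicate block over all libraries cave fish at 7 dpi had 3 calls in place of 5. At 14 dpi it had 4 in place of 6, of which 3 were shared, with myh9a (0.0791), myl12.1 (0.062) and MYLPF (0.051) lost and mybpc2a (0.031) gained. The block within surface controls and surface 1 dpi gave 12 calls, 2 higher and 10 lower. With 2 or 3 libraries a group and unknown depth, changes of low genes were measured with little precision.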
